A study of Mus musculus with 8 samples.

Results

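H19 and 9 other imprinted genes that control growth were followed in mouse liver, namely Igf2, Igf2r, Cdkn1c, Dlk1, Meg3, Peg3, Plagl1, Mest and Grb10. They were picked out by gene symbol, with earlier results of these data known. They make up 10 of the 55450 genes in the deposited tables. Polyadenylated liver RNA was sequenced from 4 control and 4 knockout livers. Controls carried Cebpa flox/flox without Cre (Cre-). Knockouts were Cre+ and lacked Cebpa in hepatocytes (CebpaΔHep in the labels). The driver of Cre is not given in the sources used here. Mice of both groups, 10 weeks old at the start, were kept on control liquid food for 5 days. Liquid food containing 5% (vol/vol) ethanol followed for 4 weeks. Every value below is therefore a difference between genotypes under ethanol, and no response to ethanol itself was measured. The protein made from Cebpa, C/EBP alpha, is a transcription factor of mature hepatocytes.

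An imprinted gene is read from the copy inherited from 1 parent only, because the other copy is silenced by marks set in the germ line. Genes read from the father's copy, such as Igf2, Dlk1, Peg3, Plagl1 and Mest, tend to promote growth of the fetus. Several genes read from the mother's copy, such as H19, Igf2r, Cdkn1c and Grb10, restrain it. Most of them are abundant in fetal liver and are turned down after birth, and H19 is known to return in some liver tumours and in injured liver. The deposited tables hold no information on which parental copy was read.

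H19 was the sole member to pass the test, and it rose 26-fold in knockout livers. Igf2, its neighbour, was at a level of 0.295 ± 0.156 counts per 1000000 (CPM) in control livers against 0.560 ± 0.214 in knockout livers (SD, n = 4 each), and that difference did not pass the test. Meg3 and Mest were higher in every knockout than in any control, and Grb10 was above all controls in 3 of the 4 knockouts, but none of these passed the test. With H19, 3 of the 9 members that could be tested were higher without overlap between the groups, against 5.52% of all tested genes. Igf2r and Peg3 overlapped between the groups and had fold changes near 1, at 0.924 and 0.901. A difference was called where its adjusted p was below 0.05 in the edgeR quasi-likelihood test, adjusted over the 13303 genes with enough counts. Of those genes 274 were called, or 2.06%, with 113 higher (0.849%) and 161 lower (1.21%). Scaled by library size alone, 161 were higher and 115 lower. Among the 9 members with enough counts, 1 was called higher and 0 lower, and DESeq2 called 2 of them, against 5.54% of all its tested genes. Their median log2 fold change was 0.88, against 0.00 over all tested genes. A positive value was found for 7 of the 9, and for 6743 of the 13303 tested genes. At an unadjusted p below 0.05 there were 4 members, and 18.5% of all tested genes. The 4 are H19, Meg3, Mest and Grb10.

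**Figure D1:**
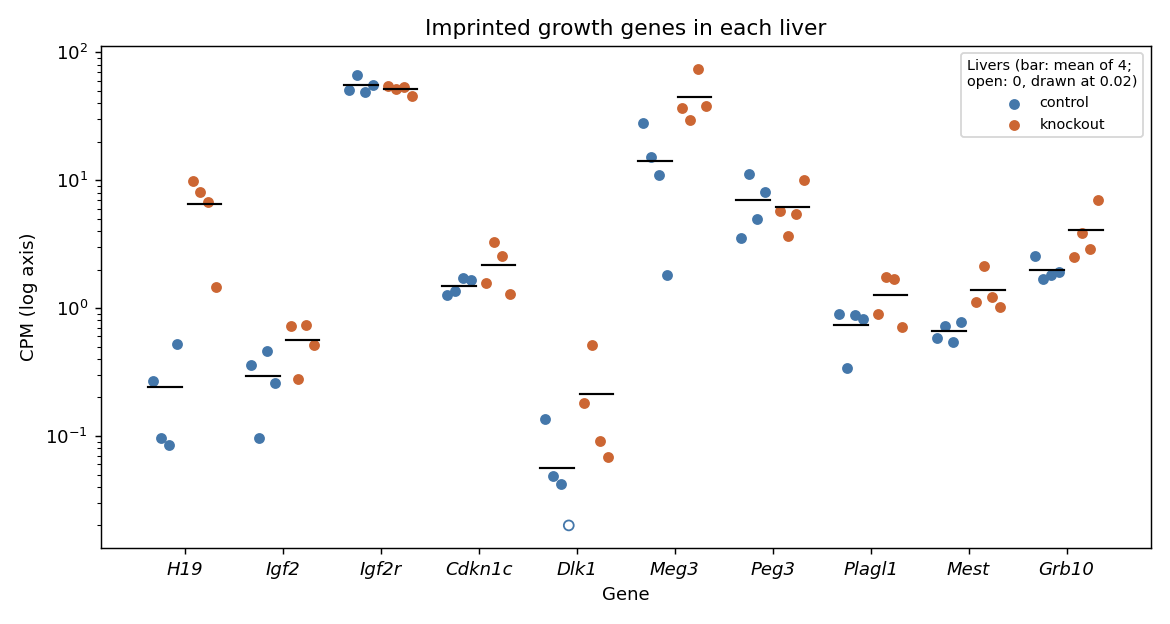
CPM of the 10 imprinted growth genes (log axis) in 4 control and 4 knockout livers, 1 point per liver with a bar at the mean of each group. The 4 H19 points of the knockouts lie between 1.47 and 9.84 CPM and all controls lie at or below 0.52 CPM, while the Igf2r points of both groups lie together around 50.

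The libraries held 21048350 to 28148744 expected counts, so that 1 count was worth 0.0341 to 0.0485 CPM. Cebpa itself was at 264 to 320 CPM in controls and 5.44 to 9.26 CPM in knockouts (log2 fold change -5.37 with SE 0.18, edgeR adjusted p = 4.78e-07), so the genotypes followed their labels. Hepatocyte markers summed to 90771 to 128126 CPM in controls and 112251 to 125615 CPM in knockouts. Of these 8 markers 0 were called higher and 1 lower, where 1.21% of all tested genes were called lower. Their median log2 fold change was -0.23, with 2 of the 8 positive. Markers of bile duct cells (cholangiocytes) were higher in every knockout, at 31.4 to 69.7 CPM against 130 to 380 CPM. The labels do not state that each liver is from a separate mouse, so p-values measure the spread between these samples, which may be technical.

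H19 is a long noncoding RNA and also the precursor of miR-675, and Igf2 holds miR-483. The sequences are shown because H19 is the member that rose and its RNA carries this hairpin. They are from RefSeq on GRCm38.p6. The mir-675 hairpin lies at chr7:142577064-142577147 on the minus strand, inside an exon of 3 of the 7 annotated H19 transcripts and inside an intron of 1. Its mature arms are in capitals.
mir-675 hairpin: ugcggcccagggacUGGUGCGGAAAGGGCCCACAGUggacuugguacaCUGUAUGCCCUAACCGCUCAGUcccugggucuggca
In the mature forms below, capitals mark the seed, bases 2 to 8, which pairs with target RNAs.
miR-675-5p: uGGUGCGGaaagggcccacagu
miR-675-3p: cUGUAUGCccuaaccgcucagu
miR-483-5p: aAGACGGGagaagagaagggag
miR-483-3p: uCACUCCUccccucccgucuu
Mest also holds mir-335, and Meg3 holds mir-770 and mir-1906-1. The 8 mature forms of mir-675, mir-483, mir-335 and mir-770 have 8 different seeds. The gene rows of these hairpins, mir-1906-1 included, held 0 counts in every liver. Libraries made from polyadenylated RNA capture host transcripts and not mature miRNAs, so these rows do not measure the miRNAs.

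H19 lies at chr7:142575529-142578143 (mm10, minus strand) and is annotated as a lincRNA with 7 transcripts. Controls 1 to 4 held 6, 2, 2 and 12 counts, which is 0.27, 0.10, 0.08 and 0.52 CPM. Knockouts 1 to 4 held 219, 205, 147 and 43 counts, or 9.84, 8.11, 6.72 and 1.47 CPM. The groups did not overlap, and knockout 4 was the lowest of its group by far yet above the highest control, control 4. Of all tested genes, 5.52% were higher in knockouts without overlap between the groups and 5.92% lower. H19 had a log2 fold change of 4.70 (SE 0.72, 95% interval 3.06 to 6.34, edgeR adjusted p = 0.0170). A two-sided exact permutation test of the CPM gave p = 0.0286, the smallest that the 70 splits of 4 against 4 allow. Summed over the livers there were 614 counts against 22, a ratio of 25.3 scaled to library size, with a 95% counting interval of 16.6 to 40.7. That interval covers counting error only.

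With 1 liver left out, the H19 log2 fold change ran from 4.40 to 5.38 and the adjusted p from 0.00045 to 0.0598. The call was kept in 4 of these 8 fits and lost without control 1, control 2, control 3 or knockout 2. It was also lost with no filter on low counts (adjusted p = 0.0533) and with limma-voom (adjusted p = 0.140). A replicate-number block in the edgeR model ended the call as well (adjusted p = 0.0816). The highest estimate, 5.38, was without control 4. The cholangiocyte marker sum was highest in knockout 2 (380 CPM), whereas H19 was highest in knockout 1. Of the 6 tested markers of that list 4 were called higher, against 0.849% of all tested genes. The 4 were Krt19, Epcam, Spp1 and Pkhd1, each called in 1 to 4 of the 8 fits with 1 liver left out. Cftr, a chloride channel of duct cells that was not tested, was under 1 CPM in every liver. Without Spp1, a secreted protein that other liver cells also make, the sum was 9.24 to 14.8 CPM in controls and 21.6 to 27.0 CPM in knockouts. Their part in the H19 result was not tested. In whole tissue, more cells of a type and more RNA per cell cannot be told apart.

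On the TPM scale, which divides by transcript length, H19 was at 0.24, 0.18, 0.19 and 0.41 in controls and 6.24, 6.09, 4.28 and 1.01 in knockouts. The ratio of the mean TPM was 17.3, smaller than the ratio of the mean CPM, 26.9. H19 was also called on log2 TPM, where the difference was 1.95 with a pseudocount of 1 (limma adjusted p = 0.0352) and 3.43 with a pseudocount of 0.1 (limma adjusted p = 0.0144). A pseudocount of that size understates the change of a gene with such low TPM. The transcript length that RSEM assigned to H19, a mean over its transcripts weighted by their estimated abundance, differed between the groups. Controls had 1546, 871, 761 and 1751 bases and knockouts 2262, 2075, 2213 and 2171 bases. The annotated H19 transcripts run from 761 to 2286 bases, so the knockout values lie near the longest form. The difference was 948 bases (exact permutation p = 0.0286, 0.0952 after Benjamini-Hochberg adjustment over the 10 members). The controls with the 2 shortest values held 2 counts each, so the length rests on few reads there.

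Igf2 encodes insulin-like growth factor 2, a fetal growth factor. It lies at chr7:142650766-142666816 on the minus strand, and its start is 88.7 kb from that of H19. It held few counts, 8, 2, 11 and 6 counts in controls and 16, 7, 16 and 15 in knockouts. Those counts are 0.36, 0.10, 0.46 and 0.26 CPM against 0.72, 0.28, 0.73 and 0.51 CPM. The groups overlapped because knockout 2 lay below controls 1 and 3. The fitted log2 fold change was 0.88 (SE 0.47, 95% interval -0.16 to 1.92, edgeR adjusted p = 0.349).

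Per length, the Igf2 difference was not seen. TPM was 0.33, 0.16, 0.70 and 0.30 in controls and 0.45, 0.17, 0.40 and 0.44 in knockouts, and the ratio of means was 0.981. The assigned transcript length was 1195 ± 253 bases in controls and 2284 ± 356 bases in knockouts (SD, n = 4). These lengths did not overlap (exact permutation p = 0.0286, adjusted over the 10 members 0.0952), with annotated transcripts of 376 to 4722 bases. The CPM and TPM scales thus differed for 27 control and 54 knockout reads that were divided among 9 transcripts.

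**Figure D2:**
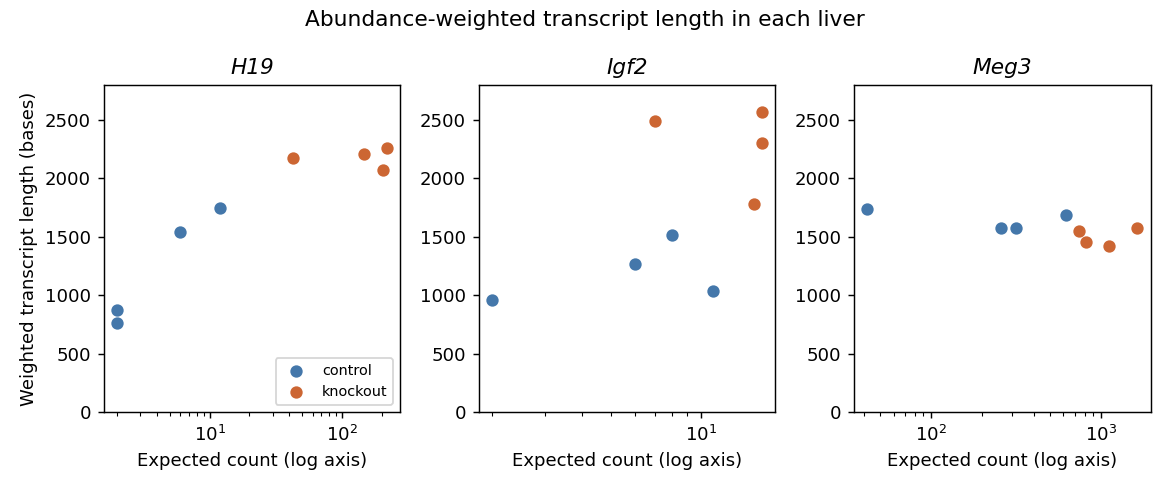
Abundance-weighted transcript length (bases) against expected count (log axis) for H19, Igf2 and Meg3, 1 point per liver. Knockout lengths lie above all control lengths for H19 and Igf2 and below them for Meg3, where the margin is small.

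Igf2r encodes the cation-independent mannose 6-phosphate receptor, which takes up IGF2 for breakdown in the lysosome. The gene, at chr17:12682406-12769664 on the minus strand, was one of the more abundant members. Controls 1 to 4 had 50.9, 66.6, 49.0 and 55.6 CPM and knockouts 1 to 4 had 54.9, 51.4, 53.1 and 45.8 CPM. The groups overlapped throughout, and the interval of the log2 fold change was narrow, from -0.35 to 0.12 around -0.11 (edgeR adjusted p = 0.598). On TPM the means were 7.97 ± 1.25 and 7.99 ± 0.59. Airn, the antisense RNA that silences the paternal Igf2r copy, overlaps the gene and held 25 counts in the control livers together and 27 in the knockouts.

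Grb10 encodes an adaptor that binds the insulin and IGF receptors and dampens their signal. It lies at chr11:11930508-12038683 on the minus strand. Counts were 57, 35, 43 and 44 in controls and 56, 97, 63 and 207 in knockouts, or 2.57, 1.70, 1.81 and 1.91 CPM against 2.52, 3.84, 2.88 and 7.06 CPM. Knockout 4 stood highest and knockout 1 fell just below control 1, so the groups overlapped. The log2 fold change of 1.04 (SE 0.33, 95% interval 0.31 to 1.76) had an edgeR adjusted p of 0.134, while DESeq2 gave 1.02 with an adjusted p of 0.048. Without knockout 4 the estimate was 0.62. In the same liver H19 was at its knockout minimum.

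The wider insulin-like growth factor list held 18 genes, of which 15 were tested, with 1 called higher and 1 lower. Of all tested genes, 0.849% were called higher and 1.21% lower. Igfals, the acid-labile subunit that keeps IGF1 in the circulation, fell from 87.4 to 101 CPM in controls to 56.0 to 70.3 CPM in knockouts (log2 fold change -0.63, edgeR adjusted p = 0.00823), in all 8 fits with 1 liver left out. Igfbp7, a secreted protein that binds IGFs weakly, rose from 35.9 to 42.6 CPM to 51.5 to 65.7 CPM (log2 fold change 0.50, edgeR adjusted p = 0.0374). The Igfbp7 call was kept in 1 of those 8 fits, that without knockout 4 (adjusted p up to 0.0991 in the others). Igf1, the main postnatal liver IGF, had a log2 fold change of -0.17 (adjusted p = 0.621), and its receptor gene Igf1r one of 0.39 (adjusted p = 0.316). Igf2bp2, an RNA-binding protein named for binding Igf2 mRNA, was lower in every knockout, at 1.35 to 1.70 CPM against 0.633 to 0.853 CPM (log2 fold change -0.89, edgeR adjusted p = 0.0755). Igf1, Igf1r and Igf2bp2 were picked after their values were seen. The median log2 fold change of the list was -0.02, and 6 of its 15 tested genes had an unadjusted p below 0.05, against 18.5% of all.

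Cdkn1c encodes p57, an inhibitor of cyclin-dependent kinases, and lies at chr7:143458339-143461050, 882.9 kb from the H19 start. Its counts were 28, 28, 41 and 38 in controls and 35, 83, 56 and 38 in knockouts. The CPM values were 1.26, 1.36, 1.73 and 1.65 against 1.57, 3.28, 2.56 and 1.30. Knockouts 2 and 3 exceeded all controls and knockouts 1 and 4 did not. With an edgeR adjusted p of 0.387, Cdkn1c was not called. The estimated log2 fold change was 0.53 (SE 0.31, 95% interval -0.15 to 1.21), and without knockout 2 it was 0.26. Kcnq1ot1, the noncoding RNA that silences the paternal Cdkn1c copy, had a log2 fold change of -0.24 (SE 0.40). All 20 cell cycle genes listed around Cdkn1c were tested and 0 were called by edgeR, with 1 at an unadjusted p below 0.05, Ccne1, the gene of cyclin E1. Its log2 fold change was -1.20 (edgeR adjusted p = 0.131), and DESeq2, which called 1 gene of the list, gave -1.22 (adjusted p = 0.0347). DESeq2 called 5.54% of all its tested genes.

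Plagl1 encodes a zinc finger transcription factor described in mice as a regulator of H19, Igf2, Cdkn1c and Dlk1. It lies at chr10:13060504-13131694. It held 20, 7, 21 and 19 counts in controls and 20, 44, 37 and 21 in knockouts, or 0.90, 0.34, 0.88 and 0.82 CPM against 0.90, 1.74, 1.69 and 0.72 CPM. Knockouts 2 and 3 were high and the other two sat among the controls. Its log2 fold change was 0.75 (SE 0.39, 95% interval -0.12 to 1.63, edgeR adjusted p = 0.336), and the ratio of mean TPM was 1.05 where that of mean CPM was 1.71. Peg3, another zinc finger gene, lies at chr7:6703892-6730431. Controls had 3.52, 11.2, 5.01 and 8.07 CPM, and knockouts 5.75, 3.68, 5.48 and 9.99 CPM, so the groups overlapped. Its log2 fold change of -0.15 (SE 0.40, 95% interval -1.05 to 0.75, edgeR adjusted p = 0.872) turned to 0.17 without control 2 and to 0.04 without knockout 2.

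Mest encodes a hydrolase-fold protein of mesoderm and growing fat, at chr6:30723547-30748465 on the plus strand. Controls held 13, 15, 13 and 18 counts and knockouts 25, 54, 27 and 30. In CPM these were 0.59, 0.73, 0.55 and 0.78 against 1.12, 2.14, 1.23 and 1.02. Every knockout was above every control, with knockout 2 highest. The log2 fold change was 1.06 (SE 0.31, 95% interval 0.38 to 1.74, unadjusted p = 0.00605, edgeR adjusted p = 0.112), and without knockout 2 it was 0.76. An exact permutation test gave p = 0.0286, again the smallest possible. The 3' end of Mest overlaps Copg2 on the other strand, which held 2120 control counts and 2695 knockout counts in all. How the counting treated strand is not given in the sources used here, and if strand was ignored, reads of the overlap cannot be told apart.

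Dlk1 encodes a membrane protein of the Notch ligand family that marks fetal liver progenitors. It lies at chr12:109452823-109463336. It had too few counts for the model, with 3, 1, 1 and 0 in controls and 4, 13, 2 and 2 in knockouts. The ratio of summed counts was 3.81 (95% counting interval 1.40 to 12.9), and it was 1.95 (0.563 to 7.58) without knockout 2 and 7.17 (1.75 to 63.1) without control 1. The CPM did not differ beyond their spread (exact permutation p = 0.143). A Notch pathway list held 12 genes, of which 11 were tested and 0 called, with 2 at an unadjusted p below 0.05. The smallest adjusted p in it belonged to Heyl, a Notch target, at 0.159 (log2 fold change 1.08).

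Meg3 is a long noncoding RNA read from the mother's copy of the cluster that also holds Dlk1, at chr12:109541001-109571726 on the plus strand. Expected counts were 620.65, 315.32, 259 and 42 in controls and 815.08, 744.9, 1625.22 and 1110.89 in knockouts. The levels were 28.0, 15.3, 10.9 and 1.82 CPM against 36.6, 29.5, 74.3 and 37.9 CPM. No knockout fell to the level of a control, but the controls spread from 1.82 to 28.0 CPM, wider than their distance from knockout 2. The log2 fold change of 1.67 (SE 0.70, 95% interval 0.01 to 3.32) had an unadjusted p of 0.0485 and an edgeR adjusted p of 0.266. It was 1.29 without control 4 and 2.25 without control 1. The exact permutation p was 0.0286. The assigned transcript length was 1644 ± 81 bases in controls and 1501 ± 72 bases in knockouts without overlap, although control 2, at 1574 bases, was only just above knockout 3, at 1572 (exact permutation p = 0.0286, adjusted over the 10 members 0.0952).

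Rian, the next noncoding RNA of the cluster, begins 62.9 kb beyond the Meg3 start and was picked after its values were seen. Controls stood at 13.9, 13.3, 6.02 and 0.95 CPM and knockouts at 24.0, 29.0, 35.8 and 17.0 CPM. As with Meg3, control 4 was lowest, knockout 3 highest, and the groups were apart. For Rian, the log2 fold change of 1.63 (SE 0.66) had an edgeR adjusted p of 0.254. Rtl1, which encodes a retrotransposon-like protein, held 0 counts in every liver, and Mirg, Begain and Dio3 had too few counts to be tested. Of 145 annotated genes within 1 Mb of Meg3, 12 besides Meg3 were tested, 0 were called and their median log2 fold change was 0.02.

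**Figure D3:**
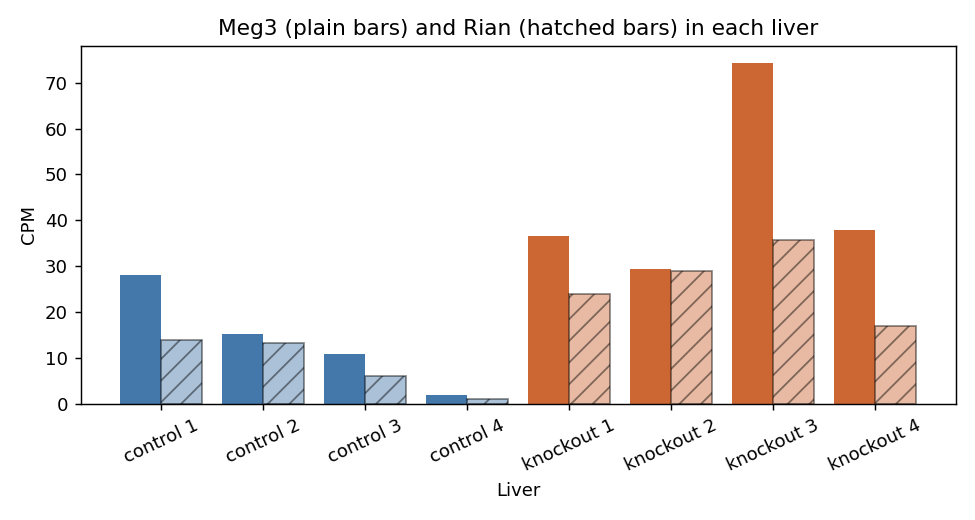
CPM of Meg3 (plain bars) and Rian (hatched bars) in each of the 8 livers, controls in blue and knockouts in orange. Both are lowest in control 4, at 1.82 and 0.95 CPM, and highest in knockout 3, at 74.3 and 35.8 CPM.

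Promoters of the other two members without overlap between the groups are shown, each 250 bases before to 50 after a RefSeq start on GRCm38.p6. The first is an upstream Mest start, chr6:30733256-30733555 on the plus strand, with a match to a C/EBP motif in capitals. The second is the Meg3 start at chr12:109540746-109541045 on the plus strand, in which neither motif was found.
Mest promoter: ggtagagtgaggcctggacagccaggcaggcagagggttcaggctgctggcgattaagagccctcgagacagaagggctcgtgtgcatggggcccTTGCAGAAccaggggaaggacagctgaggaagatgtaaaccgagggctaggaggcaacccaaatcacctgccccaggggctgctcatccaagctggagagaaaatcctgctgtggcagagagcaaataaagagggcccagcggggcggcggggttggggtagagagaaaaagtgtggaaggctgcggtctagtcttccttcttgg
Meg3 promoter: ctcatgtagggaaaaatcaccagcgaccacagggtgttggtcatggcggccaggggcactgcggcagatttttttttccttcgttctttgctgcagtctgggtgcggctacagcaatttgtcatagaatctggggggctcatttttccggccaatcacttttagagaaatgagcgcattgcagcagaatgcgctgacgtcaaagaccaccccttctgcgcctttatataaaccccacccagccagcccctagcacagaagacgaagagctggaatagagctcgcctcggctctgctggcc
The C/EBP motif searched was TTGCNNAA, and the Plagl1 motif was GGGGCCCC, each on both strands. TTGCNNAA was in 3547 of 32851 promoters (10.8%) and GGGGCCCC in 354 (1.08%). The table matched 8 of the 10 members, all but H19 and Cdkn1c, with 15 promoters. TTGCNNAA was in 1 of the 15, the upstream Mest promoter above, starting at position -155 from the start. The other Mest promoters, at chr6:30737800-30738099 and chr6:30737803-30738102, held no match to it. GGGGCCCC was also in 1 of the 15, a Peg3 promoter at chr7:6730370-6730669.

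**Figure D4:**
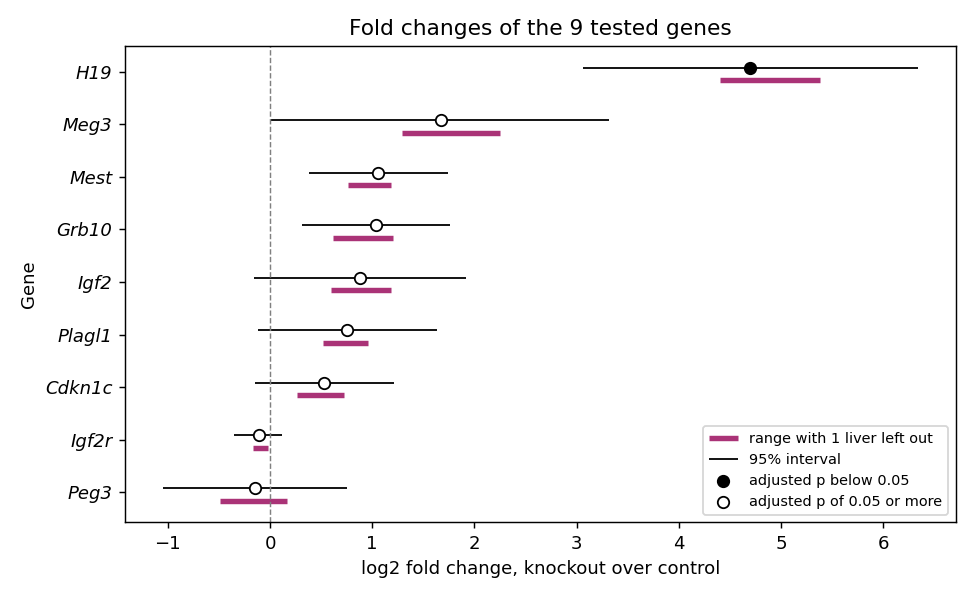
Log2 fold changes of knockout over control for the 9 tested members with 95% intervals (thin lines) and the range of the estimate with 1 liver left out (thick lines), filled where the adjusted p is below 0.05. H19 alone is filled, at 4.70, and the range of Peg3 crosses 0, from -0.49 to 0.17.

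The members also differed in level. By mean TPM, Meg3 (12 ± 8.78) and Igf2r (7.97 ± 1.25) were the most abundant in controls and overlapped each other. Igf2r was apart from Cdkn1c (1.74 ± 0.513), whereas Meg3, down to 1.44 in control 4, overlapped it. Next came Peg3, Grb10, Plagl1, Igf2, Mest, H19 and Dlk1, in which each neighbour overlapped the next. H19 was ninth, at 0.255 ± 0.107. In knockouts Meg3 (44.9 ± 16.9) and Igf2r (7.99 ± 0.59) were each apart from the next, and H19 came next at 4.41 ± 2.43, overlapping Cdkn1c (2.49 ± 0.899). The members did not share a highest knockout liver. Knockout 2 was highest among the knockouts for 4 of the 10, Cdkn1c, Dlk1, Plagl1 and Mest, and knockout 4 was lowest for 6 of the 10. Knockout 2 also had the highest sum of cholangiocyte, stellate cell and fibroblast, endothelial and Kupffer cell markers. Stellate cell and fibroblast markers summed to 84.3 to 147 CPM in controls and 374 CPM in knockout 2, against 141 to 154 CPM in the other knockouts, with 0 of 10 called. Their part in the member values of knockout 2 was not tested.

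Across the 8 livers, the genes most like H19 by Pearson correlation of log2 CPM, among 11114 genes that averaged 1 CPM or more, were Gstm6 (0.988), Tmem184a (0.985), Acad12 (0.982), Bex4 (0.980) and Prrx1 (0.979). All 5 were called higher in knockouts, Bex4 in all 8 fits with 1 liver left out and the other four in 1 to 3 of them. The genotype difference is thus part of each correlation. Each had knockout 4 as its lowest knockout, as H19 did. The 5 genes were picked for likeness to H19 over these same 8 livers, so both patterns follow in part from that choice. Of the members above that level, Mest was the most like H19 (0.871, rank 220), then Cdkn1c (0.612), Meg3 (0.548) and Grb10 (0.498). Igf2r (-0.212, rank 6598) and Peg3 (-0.279, rank 6996) had weak negative correlations over the 8 livers.

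Around H19, 89 annotated genes lay within 1 Mb and 16 of these were tested. Of the 16, 1 was called higher, against 0.849% of all tested genes, and 0 lower, with a median log2 fold change of 0.39. The called gene was Cd81, a tetraspanin of the cell surface, which rose from 160 to 185 CPM in controls to 223 to 278 CPM in knockouts (log2 fold change 0.58, SE 0.10, edgeR adjusted p = 0.0184). The Cd81 call was kept in 4 of 8 fits with 1 liver left out and lost without control 1, control 3, knockout 1 or knockout 2 (adjusted p up to 0.0721). Mrpl23, the closest tested neighbour on the other side from Igf2, had a log2 fold change of 0.36 (SE 0.10, adjusted p = 0.109). Dusp8, a phosphatase gene, and Kcnq1, a potassium channel gene, had values of 1.34 and 1.05 with adjusted p of 0.111 and 0.1. Dusp8 had the highest value among these neighbours, below that of H19.

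**Figure D5:**
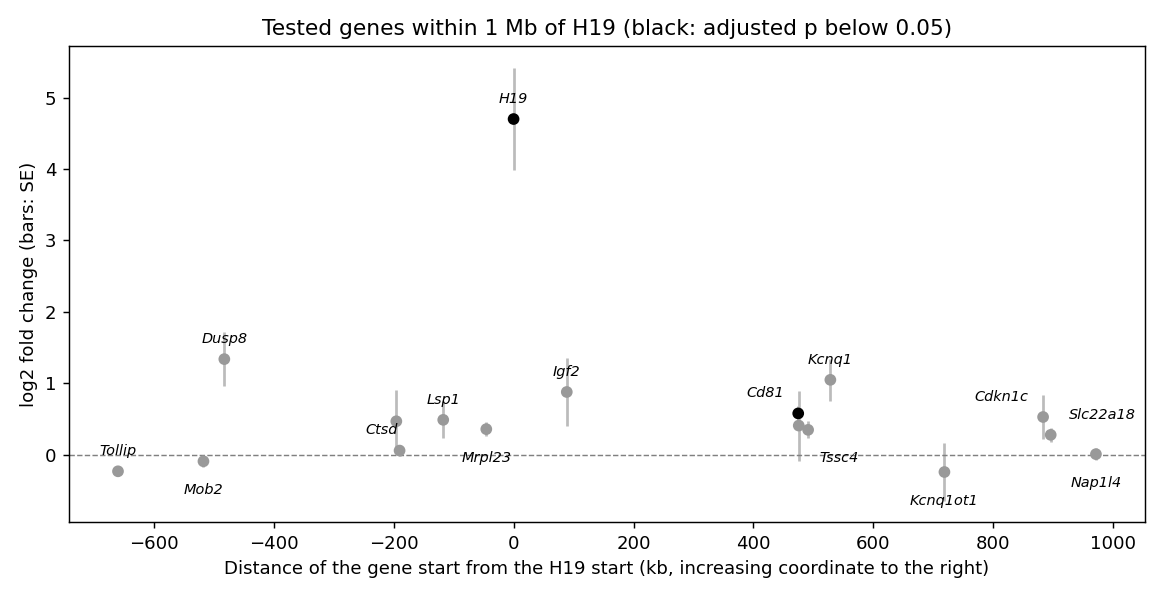
Log2 fold change of knockout over control with SE for H19 and the tested genes within 1 Mb, against the distance between gene starts in kb; black points have an adjusted p below 0.05. H19 stands at 4.70 and every neighbour lies between -0.24 and 1.34, with Cd81 the other black point.

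Other imprinted genes were also examined. Of 36 genes beside the members in their clusters, 20 were tested and 1, Cd81, was called higher, against 0.849% of all tested genes. An unadjusted p below 0.05 was found for 9 of the 20, against 18.5% of all tested genes. Without overlap between the groups, 6 of the 20 were higher and 1 lower, against 5.52% and 5.92% of all tested genes. Of 12 further genes of the imprinted gene network, 7 were tested, 0 were called by edgeR and 0 had an unadjusted p below 0.05, with a median log2 fold change of -0.08. The most abundant of them was Slc38a4, an amino acid transporter, at 965 to 1007 CPM in controls and 729 to 1036 CPM in knockouts (log2 fold change -0.23, edgeR adjusted p = 0.349). Among 14 genes that maintain imprints and DNA methylation, 11 were tested and 0 called, with 1 at an unadjusted p below 0.05. That 1 was Tet3, a methylcytosine dioxygenase (log2 fold change -0.31, adjusted p = 0.155). Ctcf, whose protein insulates Igf2 from shared enhancers, had a log2 fold change of -0.01 (SE 0.10).

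H19 was set beside genes that, like it, are high in fetal liver and low after birth, and beside their regulators. Of these 12 genes, 8 were tested and 2 were called higher, against 0.849% of all tested genes. At an unadjusted p below 0.05 there were 4 of the 8, and 18.5% of all tested genes. Lpl, lipoprotein lipase, rose from 13.6 to 24.0 CPM in controls to 70.4 to 153 CPM in knockouts (log2 fold change 2.63, edgeR adjusted p = 0.00262). Scd2, a fatty acid desaturase, rose from 3.30 to 6.15 CPM to 7.41 to 10.7 CPM (log2 fold change 0.90, edgeR adjusted p = 0.0451), a call kept in 1 of 8 fits with 1 liver left out, that without control 3 (adjusted p up to 0.127 in the others). Afp, alpha-fetoprotein, was at most 0.989 CPM in any liver, with a log2 fold change of 0.78 (SE 0.55, adjusted p = 0.477). Gpc3 had 0.60 (SE 0.73, adjusted p = 0.694). Zhx2 and Zbtb20, which in mouse liver after birth repress Afp, and for Zhx2 also H19, had log2 fold changes of 0.04 (SE 0.11) and 0.01 (SE 0.29). The 6 hepatoblast markers, Dlk1 and Afp among them, summed to 0.437 to 1.39 CPM in controls and 1.09 to 1.8 CPM in knockouts, and each was under 1 CPM in every liver. In each knockout, H19 by itself was above the summed level of these 6 genes in the same liver.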

How the data were processed

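Per the labels' protocols, a stranded TruSeq mRNA kit was used for the 8 livers. The tools named in the submitters' processing notes are RSEM 1.2.22, STAR 2.5.1, Trimmomatic 0.36, Picard 1.84 and DESeq2, with genome build mm10. The deposited expected counts are RSEM estimates per gene and can be fractional. The deposited TPM values are scaled to transcript length and to a fixed total. The deposited transcript lengths are weighted by abundance, so reads shared between forms can move them. Gene positions are from GENCODE M21, to which all 55450 identifiers matched.

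Expected counts were rounded and fitted with edgeR 4.0.16 in R 4.3.3 (filterByExpr, minimum count 10, minimum total 15; TMM; robust quasi-likelihood test, two-sided, Benjamini-Hochberg adjustment, threshold 0.05). SE was computed from the fold change and F. CPM used TMM-scaled library sizes, and likeness used log2 CPM with a prior count of 2. Permutation tests used all 70 splits. The steps were checked on simulated data. Alternatives were other scalings, filters, DESeq2 1.42.0, limma 3.58.1, log2(TPM + 1) and log2(TPM + 0.1), a replicate-number block and leaving out livers. Figures used matplotlib 3.10.9.

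The members, gene lists and alternatives were chosen with earlier results of these data known. From each list that is no marker list the text names up to 2 called genes per direction by smallest adjusted p, or the best 1 where none was called, besides the members and the 5 genes most like H19. Some results are not reported here. Rian, Mirg, Begain, Dio3, Rtl1, Airn, Kcnq1ot1, Ctcf, Afp, Gpc3, Zhx2, Zbtb20, Igf1, Igf1r, Igf2bp2, the called cholangiocyte markers and the genes near H19 other than Cd81 were added after their values were seen. No 2 livers of the same group agreed within sampling noise, and controls were not compared with knockouts in this way.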

Additional observations from a re-analysis of the deposited data

Results flagged for a closer look

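Plagl1 in control 2, at 0.34 CPM, lay far below the other controls, which ran from 0.82 to 0.90 CPM. On TPM the same liver was the highest control, at 0.8 against 0.24, 0.31 and 0.57, with 7 counts and an assigned transcript length of 728 bases. It was the 1 value that stood apart among the 20 groups of 4 livers examined, and about 1 such group in 20 arises by chance.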

How the results depend on the processing

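H19 was higher in knockouts under every alternative run. The log2 fold change was lowest on log2(TPM + 1), at 1.95, and log2(TPM + 0.1), at 3.43, with the call kept. The call was lost with no filter (log2 fold change 4.69, edgeR adjusted p = 0.0533) and with limma-voom (4.55, adjusted p = 0.140). It was lost as well with a replicate block (4.50, edgeR adjusted p = 0.0816) and in 4 of 8 fits with 1 liver left out (range over the 8 fits 4.40 to 5.38). The number of members called was 1 in the main result, 0 with no filter, limma-voom or a replicate block, 2 with DESeq2 and 0 to 1 with 1 liver left out. All genes called numbered 274, against 837 with DESeq2, 431 without control 2 and knockout 4, and 108 (without knockout 2) to 372 (without knockout 4) with 1 liver left out. Igf2r turned to 0.01 on log2(TPM + 1), to 0.01 on log2(TPM + 0.1) and to 0.03 without control 2 and knockout 4, and Peg3 ran from -0.49 to 0.17 with 1 liver left out, positive without control 2 (0.17) or knockout 2 (0.04). The cause of these shifts was not tested. The median log2 fold change of all genes was 0.091 and 0.116 on the TPM scales and 0.073 with library size alone, against 0.004 in the main fit. Positive values on those scales are to be read against these medians.

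Same-numbered livers did not deviate from their group means together (correlations 0.207, 0.009, -0.024 and -0.067), so the numbers were not taken as pairs. With a replicate block, H19 had a log2 fold change of 4.5 (edgeR adjusted p = 0.0816), 0 members were called and 176 genes were called in all. The block also ended the calls of Cd81 (adjusted p = 0.0685), Igfbp7 (0.0924) and Scd2 (0.0875). With 22 H19 counts and 27 Igf2 counts over the 4 controls, and 5 of Dlk1, depth limits what these genes can show.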
